A study of Homo sapiens with 6 samples.

Results

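The ERBB receptors, their ligands and a pair of receptor inhibitors were followed by RNA sequencing in the human lung cancer line PC9/GR. The 10 genes were taken by symbol from a count table of 54261 gene symbols: the receptors EGFR, ERBB2 and ERBB3, the ligands AREG, EREG, TGFA, HBEGF and BTC, and the inhibitors ERRFI1 and LRIG1. All 10 were in the table, and all 10 passed the filter on low counts that 15391 genes passed. The cells received an siRNA against MYLK-AS1, an antisense long non-coding RNA at the MYLK locus (si-MYLK-AS1, 3 libraries), or a control siRNA (si-NC, 3 libraries). Both groups are the same cell line, given as a single line with no clone named. The series title places the work in resistance of non-small cell lung cancer to EGFR inhibitors through glutamine metabolism. The sources used here do not say what GR abbreviates, and they give no siRNA sequence, dose or hours of treatment. The repeats are not said to be separate cultures, so the p-values measure only the spread between these libraries, which may be technical.

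ERBB receptors are tyrosine kinases at the cell surface that pair with each other when a ligand binds. EGFR binds all 5 ligands listed here, ERBB2 has no known soluble ligand and acts as a preferred partner, and ERBB3 has an impaired kinase but docks PI3K strongly. The ligands are made as membrane-anchored precursors and are cut free by proteases such as ADAM17 and ADAM10. ERRFI1 (also called MIG6) binds and inhibits the kinase domain, and LRIG1 is a membrane protein that restrains the receptors. PC9 is a much used model of lung adenocarcinoma with an activated EGFR.

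Of the 10 genes, 3 ligands rose and 1 receptor and 1 inhibitor fell. EREG was 3.51-fold higher in si-MYLK-AS1 cells than in si-NC cells, HBEGF 1.97-fold higher and AREG 1.68-fold higher. ERBB3 fell to 29.6% and ERRFI1 to 44.1% of their si-NC levels. EGFR, ERBB2, TGFA, BTC and LRIG1 did not pass the threshold, which was 0.05 for the p of edgeR's quasi-likelihood test after adjustment over all tested genes. That is 5 of 10 genes called, beside 42.0% of all tested genes (21.3% higher, 20.7% lower), so the share called is near the background. The median log2 fold change of the 10 was -0.01, with the median of all tested genes at -0.0005.

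Library totals ran from 7551303 to 11055408 counts in si-MYLK-AS1 and from 8867818 to 10978513 counts in si-NC. MYLK-AS1 itself had 0, 5 and 4 reads in si-MYLK-AS1 replicates 1 to 3, against 20, 16 and 19 reads in si-NC replicates 1 to 3 (log2 fold change -2.43, SE 0.60, adjusted p = 0.00326, edgeR). Of 10 epithelial markers, 5 stood above 10 CPM in both groups (CPM are counts scaled to a common library size with TMM factors), and SFTPB, a surfactant gene of lung epithelium, had 0 reads. NKX2-1, which marks lung lineage, had 14 reads in all si-MYLK-AS1 libraries and 9 in all si-NC libraries. The summed epithelial markers lay at 7630 to 8230 CPM in si-MYLK-AS1 and at 11900 to 13900 CPM in si-NC. Nearly all of that sum was KRT7, KRT8 and KRT18. Of 8 tested epithelial markers, 5 were lower and 1 (KRT19) higher, beside 20.7% lower and 21.3% higher among all tested genes. The leukocyte markers PTPRC and CD3E had 0 reads in every library, and the sum of that list, 19.2 to 24.0 CPM in si-MYLK-AS1 and 30.5 to 42.7 CPM in si-NC, was nearly all CD14. The fibroblast marker list summed to 28.4 to 36.3 CPM in si-MYLK-AS1 and 21.8 to 28.1 CPM in si-NC. Most of it was COL1A1, which was not called (adjusted p = 0.493, edgeR). LUM, the other tested member, rose, with 91 reads in si-MYLK-AS1 and 15 in si-NC. PDGFRB had too few reads to test, 30 in si-MYLK-AS1 and 3 in si-NC. Endothelial markers summed to 0.273 to 0.839 CPM in si-MYLK-AS1 and 0.289 to 1.0 CPM in si-NC. The part of these marker shifts in the ERBB results was not tested. In bulk RNA, fewer cells that make a transcript and less of it per cell cannot be told apart.

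AREG and EREG, which rose together, lie side by side on chromosome 4. EPGN, EREG and AREG run in the same direction on the plus strand of GRCh38, and BTC lies further along on the minus strand (GENCODE release 29). EREG (ENSG00000124882.3) spans chr4:74365143-74388751 and AREG (ENSG00000109321.10) spans chr4:74445134-74455009, with 56.4 kb between them. BTC (ENSG00000174808.11), at chr4:74744759-74794686, starts 290.0 kb beyond AREG. The promoter windows of the neighbours that rose are shown to let their start regions be compared. Each runs 5′ to 3′ from 250 bases before to 50 bases after the annotated start (RefSeq, GRCh38.p14, plus strand), at chr4:74444886-74445185 for AREG and chr4:74364895-74365194 for EREG. Capitals mark TGACGTCA, a full cAMP response element, and the core promoter word TATAAA.
AREG: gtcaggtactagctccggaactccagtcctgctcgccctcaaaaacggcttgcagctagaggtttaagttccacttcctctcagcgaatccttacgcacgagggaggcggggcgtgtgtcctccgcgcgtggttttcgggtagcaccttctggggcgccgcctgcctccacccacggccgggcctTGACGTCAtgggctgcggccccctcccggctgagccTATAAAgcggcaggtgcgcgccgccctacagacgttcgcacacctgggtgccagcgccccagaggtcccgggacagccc
EREG: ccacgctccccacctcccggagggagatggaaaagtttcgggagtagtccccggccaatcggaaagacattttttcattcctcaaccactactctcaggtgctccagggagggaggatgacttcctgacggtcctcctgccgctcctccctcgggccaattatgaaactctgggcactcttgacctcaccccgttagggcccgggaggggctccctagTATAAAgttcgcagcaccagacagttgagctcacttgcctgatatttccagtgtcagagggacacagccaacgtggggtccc

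Both windows hold TATAAA, beginning 29 bases before the start in AREG and 32 bases before it in EREG. On either strand TATAAA occurs in 11.5% of the 35116 promoter windows of the same length in the table. TGACGTCA occurs in the AREG window, beginning 65 bases before the start, and in 1.85% of all windows. TATAAA is also in a window of EGFR, at a start inside the gene, and EGFR did not pass the threshold. HBEGF, the other ligand that rose, has neither of these words in its window, and neither has ERRFI1. The word TGANTCA, an AP-1 site where N is C or G, was in 7.71% of all windows. It was found in windows of EGFR, ERBB2 and LRIG1, genes that did not pass the threshold. In EGFR and LRIG1 the matches were TGAGTCA and TGACTCA, at starts inside the genes. In ERBB2 the match was TGATTCA, where N is T. CACGTG, an E-box, was in no window of the 9 genes found in the table (7.26% of all windows). The forkhead word GTAAACA was in that of BTC alone (3.42% of all windows). ERBB3, which fell, had no promoter window and was not searched for any of these words. Some of these genes have several windows, 14 in all. The GC-box word GGGCGG was in 9 of the 14, from 7 genes, and in 45.0% of all windows. All words were searched on both strands, and those in capitals do not overlap each other. A match is a match of letters in the window and says nothing about binding.

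**Figure D1:**
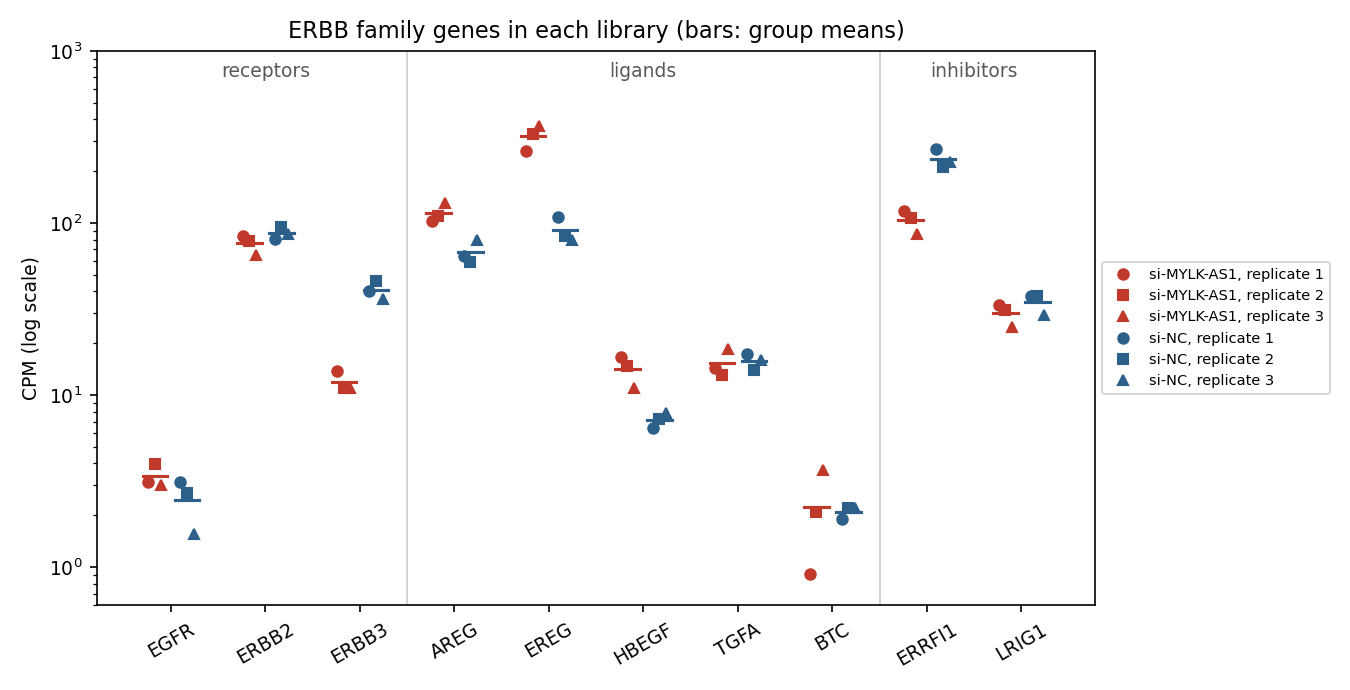
CPM (log axis) of the 10 genes in each library, si-MYLK-AS1 left of si-NC for each gene, with symbols for replicates 1 to 3 and bars for group means. The groups are apart for ERBB3, AREG, EREG, HBEGF and ERRFI1 and overlap for the other 5 genes.

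Among the receptors, ERBB3 fell while ERBB2 and EGFR did not pass the threshold. ERBB3 (ENSG00000065361.15, chr12:56076799-56103505, plus strand) had 13.8, 11.0 and 10.9 CPM in si-MYLK-AS1 replicates 1 to 3, against 39.9, 45.7 and 36.0 CPM in si-NC replicates 1 to 3. Its highest si-MYLK-AS1 library lay well below its lowest si-NC library. The log2 fold change was -1.76 (SE 0.15, adjusted p = 8.08e-08, edgeR), from 336 reads in si-MYLK-AS1 and 1226 in si-NC. Of all tested genes, 2.81% changed by more in either direction.

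ERBB2 (ENSG00000141736.13, chr17:39687914-39730426, plus strand), the partner kinase, had 83.6, 78.5 and 65.4 CPM in si-MYLK-AS1 replicates 1 to 3, against 80.3, 94.7 and 86.7 CPM in si-NC. The groups overlapped, and the log2 fold change was -0.20 with a 95% interval of -0.43 to 0.03 (adjusted p = 0.16, edgeR). On the opposite strand, exons of MIEN1 cover 571 of its 10321 exon bases and exons of PGAP3 cover 194. Whether reads were counted by strand is not stated, and reads of these stretches cannot be told apart. Neither neighbour passed the threshold.

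EGFR (ENSG00000146648.17, chr7:55019021-55211628, plus strand), the receptor that the inhibitors in the series title are aimed at, was listed with few reads. There were 34, 38 and 22 reads in si-MYLK-AS1 replicates 1 to 3 and 28, 28 and 17 reads in si-NC replicates 1 to 3. As levels these were 3.10, 3.98 and 3.00 CPM in si-MYLK-AS1, against 3.11, 2.70 and 1.56 CPM in si-NC. The groups overlapped, and the log2 fold change of 0.47 had a wide 95% interval, from -0.21 to 1.14 (adjusted p = 0.26, edgeR). Over all 6 libraries, 18.7% of tested genes had a lower mean CPM than EGFR. The figure was 83.5% for ERBB2 and 58.7% for ERBB3, and none of these takes account of gene length. Its antisense gene EGFR-AS1, with 186 bases of exon overlap, had 0 reads in every library. How the low EGFR count came about was not tested. HRAS, a broadly expressed RAS gene, was also listed at 0 reads in all 6 libraries, as was SLC25A26, whose exons overlap those of LRIG1 on the other strand. HRAS and SLC25A26 were named after their values were seen. Whether PC9/GR cells express HRAS or SLC25A26 was not tested, and neither was a link to the EGFR count.

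The ligands split into 3 that rose and 2 that did not pass the threshold. EREG encodes epiregulin, which binds EGFR and ERBB4. It had 260.2, 330.3 and 363.1 CPM in si-MYLK-AS1 replicates 1 to 3, against 107.6, 84.4 and 79.9 CPM in si-NC replicates 1 to 3. Every si-MYLK-AS1 library was more than 2-fold above every si-NC library. The log2 fold change was 1.81 (SE 0.13, adjusted p = 3.66e-08, edgeR), and 2.56% of tested genes changed by more. EREG was the one gene of the 10 called at least 2-fold higher, as were 4.20% of tested genes.

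AREG encodes amphiregulin, an EGFR ligand. It had 102.9, 109.9 and 130.1 CPM in si-MYLK-AS1 replicates 1 to 3, against 64.4, 58.9 and 79.7 CPM in si-NC replicates 1 to 3. The groups did not overlap, although the si-NC libraries spread more than for most of the 10 genes. The log2 fold change was 0.75 (SE 0.12, adjusted p = 8.5e-05, edgeR).

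HBEGF (ENSG00000113070.7, chr5:140332843-140346631, minus strand) encodes heparin-binding EGF-like growth factor, a ligand of EGFR and ERBB4. It had 16.6, 14.7 and 10.9 CPM in si-MYLK-AS1 replicates 1 to 3, against 6.45, 7.23 and 7.87 CPM in si-NC. The groups did not overlap, and si-MYLK-AS1 replicate 3 came nearest to the si-NC libraries. The log2 fold change was 0.98 (SE 0.19, adjusted p = 0.000629, edgeR).

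TGFA (ENSG00000163235.15, chr2:70447280-70554193, minus strand) encodes transforming growth factor alpha, a further EGFR ligand. It had 14.43, 12.998 and 18.57 CPM in si-MYLK-AS1 replicates 1 to 3, against 17.24, 13.97 and 16.02 CPM in si-NC. The groups overlapped, and the 95% interval of the log2 fold change, -0.40 to 0.31, holds neither a rise nor a fall of 1.5-fold (adjusted p = 0.852, edgeR). BTC encodes betacellulin, a ligand of EGFR and ERBB4, and was counted at 10, 20 and 27 reads in si-MYLK-AS1 and 17, 23 and 24 reads in si-NC. At 0.913, 2.10 and 3.69 CPM in si-MYLK-AS1, against 1.89, 2.22 and 2.20 CPM in si-NC, it varied most between the si-MYLK-AS1 libraries. Its interval, from -0.86 to 0.89, was too wide to show a change smaller than about that size (adjusted p = 0.976, edgeR).

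Of the inhibitors, ERRFI1 fell and LRIG1 did not pass the threshold. ERRFI1 (ENSG00000116285.12, chr1:8004404-8026308, minus strand) had 117.5, 106.3 and 86.1 CPM in si-MYLK-AS1 replicates 1 to 3, against 267.1, 211.2 and 225.9 CPM in si-NC. The highest si-MYLK-AS1 library was far below the lowest si-NC library. The log2 fold change was -1.18 (SE 0.12, adjusted p = 5.2e-07, edgeR). ERBB3 and ERRFI1 were the genes of the 10 called at least 2-fold lower, as were 7.35% of tested genes. LRIG1 (ENSG00000144749.13, chr3:66378797-66501263, minus strand) had 33.24, 31.34 and 24.71 CPM in si-MYLK-AS1, against 37.71, 37.77 and 29.01 CPM in si-NC. The groups overlapped, with a log2 fold change of -0.22 and a 95% interval of -0.52 to 0.09 (adjusted p = 0.241, edgeR). Exons of SLC25A26 on the other strand cover 12.9% of the LRIG1 exon bases.

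**Figure D2:**
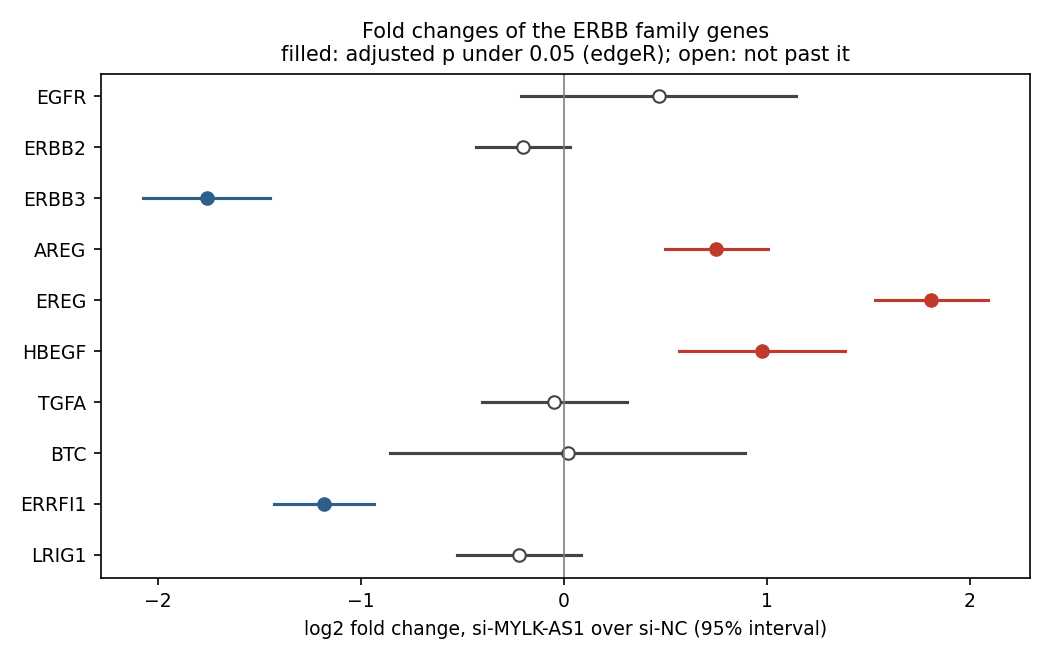
Log2 fold change of each gene, si-MYLK-AS1 over si-NC, with its 95% interval from the edgeR fit; filled points passed an adjusted p of 0.05. ERBB3 (-1.76) and EREG (1.81) lie farthest from 0, and the intervals of EGFR and BTC are the widest.

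The CPM groups of 5 of the 10 genes did not overlap, beside 52.2% of all tested genes. For each of these 5, permuting the library labels (exact permutation test on CPM, two-sided) returned p = 0.1, the lowest value open to 3 libraries against 3. Within si-MYLK-AS1, replicate 3 was at one end of the group for all 10 genes. It was the lowest for EGFR, ERBB2, ERBB3, HBEGF, ERRFI1 and LRIG1 and the highest for AREG, EREG, TGFA and BTC. It is also the library with the lowest total. How often replicate 3 was at one end over all tested genes was not counted. In si-NC, replicate 3 was the highest for 2 genes and the lowest for 4. With si-MYLK-AS1 replicate 3 left out, the same 5 genes passed the threshold.

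Levels of different genes can be set side by side only per length, here as CPM per kb of annotated exon. In si-MYLK-AS1 the order was AREG (69.3 CPM per kb), EREG (55.6), ERRFI1 (24.7), ERBB2 (7.35), HBEGF (4.66), LRIG1 (4.23), TGFA (3.09), ERBB3 (1.32), BTC (0.793) and EGFR (0.269). In si-NC it was ERRFI1 (56.1 CPM per kb), AREG (41.1), EREG (15.9), ERBB2 (8.45), LRIG1 (4.95), ERBB3 (4.48), TGFA (3.17), HBEGF (2.38), BTC (0.746) and EGFR (0.196). The ligands AREG and EREG thus stood above the inhibitor ERRFI1 in si-MYLK-AS1, while ERRFI1 stood above both in si-NC. The last place of EGFR rests on the few reads listed for it, and how that count came about was not tested. Neighbours in these orders were not always apart. In si-MYLK-AS1 the library values overlapped for AREG and EREG, for HBEGF and LRIG1, for LRIG1 and TGFA and for ERBB3 and BTC. In si-NC they overlapped for LRIG1 and ERBB3. Compared within each library, AREG stood above EREG and HBEGF above LRIG1 in every si-MYLK-AS1 library. LRIG1 stood above ERBB3 in every si-NC library. LRIG1 and TGFA, and ERBB3 and BTC, changed places in si-MYLK-AS1 replicate 3.

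The summed level of the 5 ligands was 2.11 times as high in si-MYLK-AS1, at 116.7, 132.7 and 151.1 CPM per kb in replicates 1 to 3, against 64.2, 56.5 and 69.0 CPM per kb in si-NC. EREG made up 41.5% ± 2.32 of it in si-MYLK-AS1 and 25.2% ± 4.59 in si-NC (SD, n = 3 each; exact permutation p = 0.1, the smallest possible). The AREG share was 52.0% ± 1.65 in si-MYLK-AS1 and 64.8% ± 4.81 in si-NC, so AREG took a smaller part of a larger sum. The HBEGF share was 3.59% ± 1.16 in si-MYLK-AS1 and 3.78% ± 0.454 in si-NC (SD, n = 3 each; exact permutation p = 0.9). For the receptors the sum was 8.93 ± 1.06 CPM per kb in si-MYLK-AS1 and 13.1 ± 1.14 CPM per kb in si-NC (SD, n = 3 each). ERBB3 made up 15.44%, 13.32% and 15.52% of that sum in si-MYLK-AS1 replicates 1 to 3, against 35.49%, 34.98% and 31.83% in si-NC. ERBB2 made up 82.2% ± 0.915 in si-MYLK-AS1 and 64.4% ± 2.45 in si-NC (SD, n = 3 each). EGFR enters the receptor sum with the few reads listed for it, 17 to 38 per library. How that count came about was not tested, and the receptor shares rest on it. The shares sum to the whole, so a rise in one lowers the others.

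**Figure D3:**
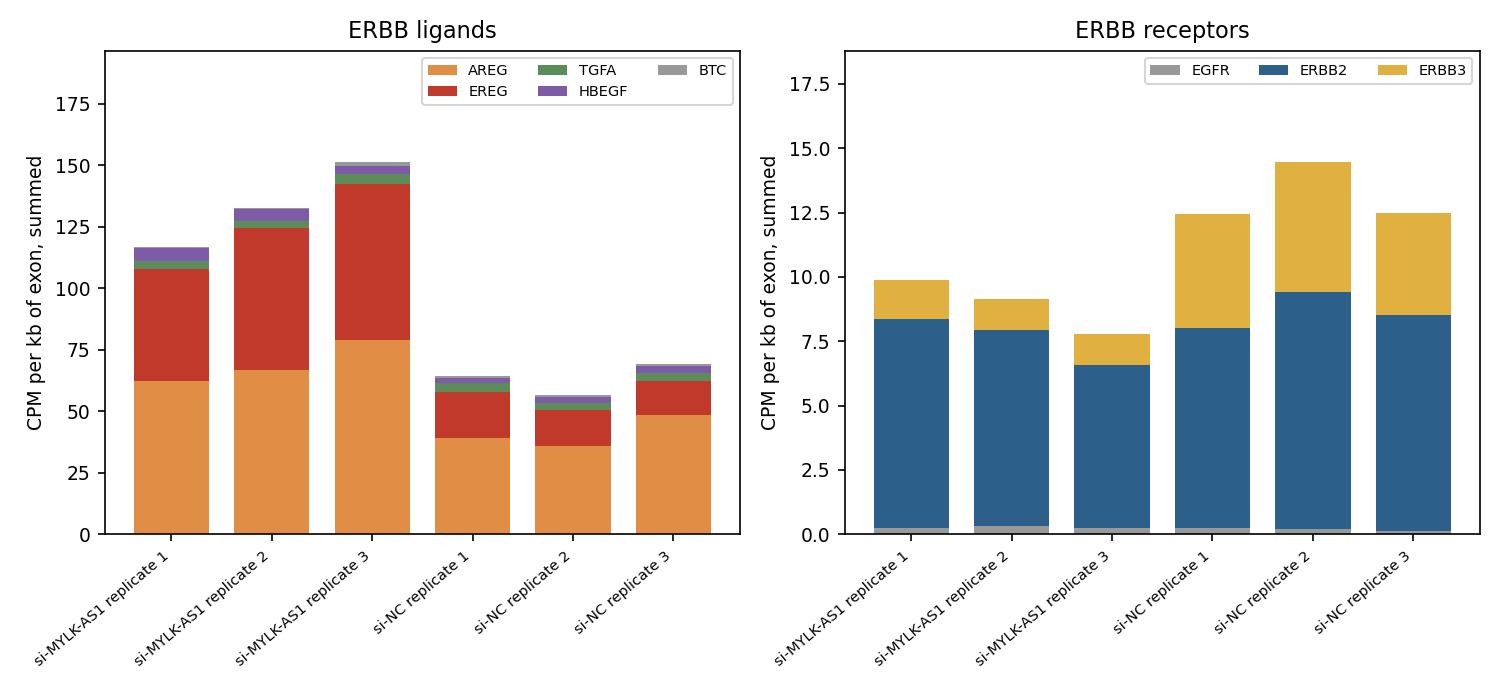
Summed CPM per kb of exon in each library, si-MYLK-AS1 left of si-NC, split by gene for the 5 ligands (left) and 3 receptors (right). The ligand bars reach 116.7 to 151.1 in si-MYLK-AS1 and 56.5 to 69.0 in si-NC, and the ERBB3 part is smaller in every si-MYLK-AS1 bar. EGFR is drawn as listed, from few reads.

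Of 10 further genes listed with the family, among them the receptor ERBB4 and the remaining ligands, 6 were tested. NRG4 was called higher and none lower (16.7% called, beside 42.0% of all tested genes). ERBB4 and these ligands had few reads. NRG4 encodes neuregulin 4, a ligand of ERBB4, and had 36, 35 and 10 reads in si-MYLK-AS1 replicates 1 to 3, against 5, 10 and 3 reads in si-NC. As CPM the groups did not overlap, and si-MYLK-AS1 replicate 3 came nearest to si-NC. Its log2 fold change was 2.23 (SE 0.48, adjusted p = 0.00118, edgeR) at a level of 2.77 ± 1.23 CPM in si-MYLK-AS1 and 0.598 ± 0.346 CPM in si-NC (SD, n = 3 each). ERBB4, its receptor, had 2 reads over the si-MYLK-AS1 libraries and 3 over the si-NC libraries. EPGN and NRG1 had 1 read each, both in si-MYLK-AS1, and NRG3 had 0. A count of 0 allows up to 0.274 to 0.410 CPM in a library, taken as 3 counts. EGF had a log2 fold change of 0.20 (SE 0.45) and NRG2 one of 0.02 (SE 0.37). LRIG2 (0.18, SE 0.17), LRIG3 (0.09, SE 0.15) and PA2G4 (0.13, SE 0.08), which encodes a protein that binds ERBB3, did not pass the threshold either.

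Of 11 tested genes of ligand shedding, 3 rose and 2 fell (45.5% called, beside 42.0% of all tested genes), with a median log2 fold change of 0.03. ADAM12, a metalloprotease that can shed HBEGF, rose to 27.2 ± 1.85 CPM in si-MYLK-AS1, against 8.15 ± 0.224 CPM in si-NC (SD, n = 3 each), which is a log2 difference of 1.74 (SE 0.15, adjusted p = 1.09e-07, edgeR). FRMD8, which stabilises the ADAM17 sheddase complex, rose as well (0.62, SE 0.11). ADAM17 itself fell (-0.37, SE 0.11, adjusted p = 0.00996, edgeR), at 66.3 ± 6.95 CPM in si-MYLK-AS1 and 86.0 ± 6.18 CPM in si-NC (SD, n = 3 each). Without si-NC replicate 1, ADAM17 was not called (log2 fold change -0.32, adjusted p = 0.0594, edgeR), which leaves 1 gene lower. CD9, a tetraspanin that associates with the HBEGF precursor, fell (-0.76, SE 0.10).

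Of 27 tested adaptors and proximal signal genes, 10 rose and 3 fell (48.1% called, beside 42.0% of all tested genes). The median log2 fold change was 0.09. Under alternative settings of the test, 7 to 10 of these genes rose and 2 to 4 fell. STAT3, a transcription factor that the receptors activate, fell to 153.6 ± 4.27 CPM in si-MYLK-AS1, against 341.9 ± 23.3 CPM in si-NC (SD, n = 3 each), which is a log2 difference of -1.15 (SE 0.09, adjusted p = 2.83e-08, edgeR). GRB7, an adaptor that docks on ERBB2 and ERBB3, fell too (-1.38, SE 0.13). EPS8, a substrate of EGFR that links to actin, rose (0.56, SE 0.09), as did the adaptor CRK (0.53, SE 0.09). Of 30 tested genes of receptor turnover, 6 rose and 3 fell (30% called, beside 42.0% of all tested genes), with a median of 0.10. Without si-MYLK-AS1 replicate 3, 1 of these genes was called lower. The ubiquitin ligases of the CBL family went opposite ways. CBL, the ligase that tags active EGFR, had 51, 36 and 30 reads in si-MYLK-AS1, against 151, 169 and 99 reads in si-NC (log2 fold change -1.74, SE 0.24, adjusted p = 2.19e-05, edgeR). CBLB rose to 68.5 ± 1.12 CPM in si-MYLK-AS1, against 41.6 ± 5.98 CPM in si-NC (SD, n = 3 each), which is a log2 difference of 0.72 (SE 0.12, adjusted p = 0.000112, edgeR). SH3KBP1, the CBL-binding adaptor of receptor endocytosis (0.82, SE 0.09), and TSG101, which sorts ubiquitinated receptors to the lysosome (0.75, SE 0.14), rose.

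**Figure D4:**
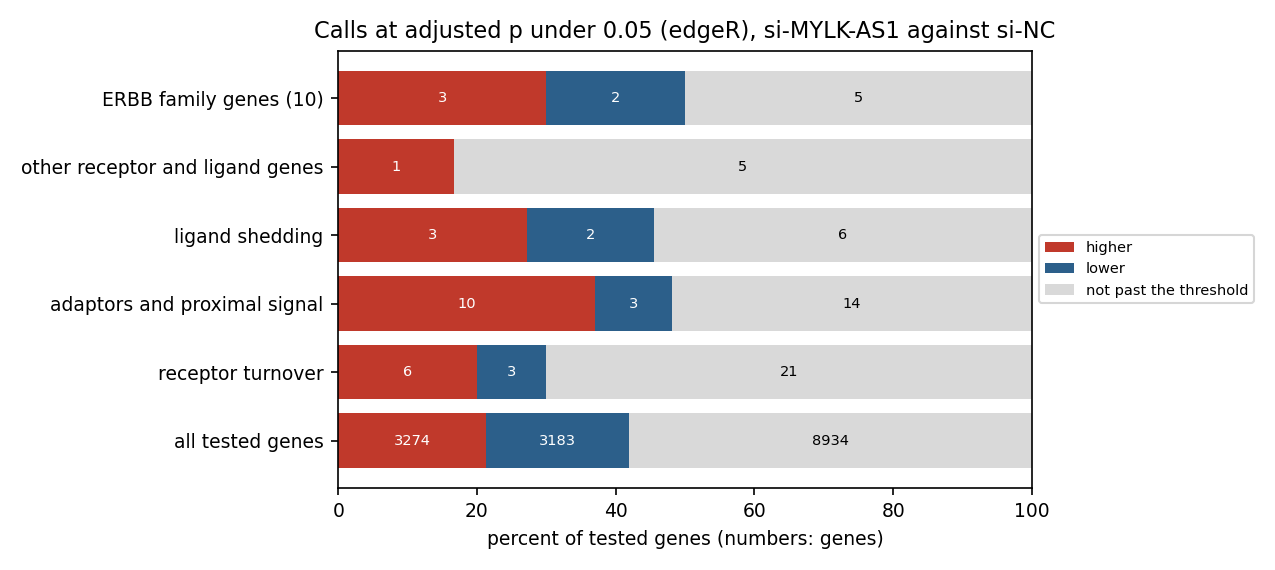
Percent of tested genes called higher or lower at an adjusted p of 0.05 (edgeR) in the 10 ERBB genes, 4 lists of pathway genes and all tested genes, with gene numbers in the bars. The 10 ERBB genes (5 called), ligand shedding (45.5% called) and the adaptors (13 of 27 called) lie near the 42.0% of all tested genes. Receptor turnover (30% called) and the other receptor and ligand genes (16.7% called) lie below it.

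Chromosomal neighbours of these genes went both ways. Around AREG, EREG and BTC, 9 of 14 listed neighbours were tested, and 3 rose and 4 fell, where 21.3% of all tested genes were called higher and 20.7% lower. The chemokine genes CXCL3 (log2 fold change -1.43, SE 0.15), CXCL1 (-0.999, SE 0.11) and CXCL5 (-0.46, SE 0.10), on one side of the ligands, fell, and THAP6 (0.80, SE 0.18), on the other side, rose. On the same side as these chemokine genes, CXCL8 rose (0.44, SE 0.15, adjusted p = 0.0264, edgeR), although its CPM groups overlapped, and CXCL2 was not called (-0.29, SE 0.13). Both were named after their values were seen. CXCL8 was not called without si-MYLK-AS1 replicate 3, si-NC replicate 2 or si-NC replicate 3 (adjusted p = 0.133, 0.104 and 0.0511, edgeR). EPGN, the ligand gene next to EREG, had 1 read in all. BTC was not called. Beside ERBB2, GRB7 and GSDMB (-1.77, SE 0.21) fell, ORMDL3 rose (0.34, SE 0.10), and the other 5 of 8 tested neighbours did not pass the threshold. ORMDL3 was not called without si-NC replicate 1 (log2 fold change 0.28, adjusted p = 0.0823, edgeR), which leaves 0 of these neighbours higher, and 2 were higher without si-MYLK-AS1 replicate 3. Around ERBB3, 4 of 12 tested neighbours fell and 0 rose, beside 20.7% of all tested genes lower and 21.3% higher. Without si-NC replicate 3, 1 rose. The 4 that fell were CDK2 (-0.94, SE 0.11), ESYT1 (-0.50, SE 0.09), SMARCC2 (-0.47, SE 0.10) and PMEL (-0.60, SE 0.22). None of them fell by as much as ERBB3. PMEL was not called with DESeq2 (adjusted p = 0.0523) or without si-MYLK-AS1 replicate 2 or any 1 of the si-NC libraries (adjusted p of 0.0542 to 0.187, edgeR). All 3 tested neighbours of EGFR rose, beside 21.3% of all tested genes, and each had more reads than EGFR. SEC61G, a subunit of the protein translocation channel, stood at 122.3 ± 29.8 CPM in si-MYLK-AS1 and 63.7 ± 3.36 CPM in si-NC (SD, n = 3 each; log2 fold change 0.94, SE 0.14). VOPP1 (0.56, SE 0.11) and LANCL2 (0.80, SE 0.18) rose as well.

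**Figure D5:**
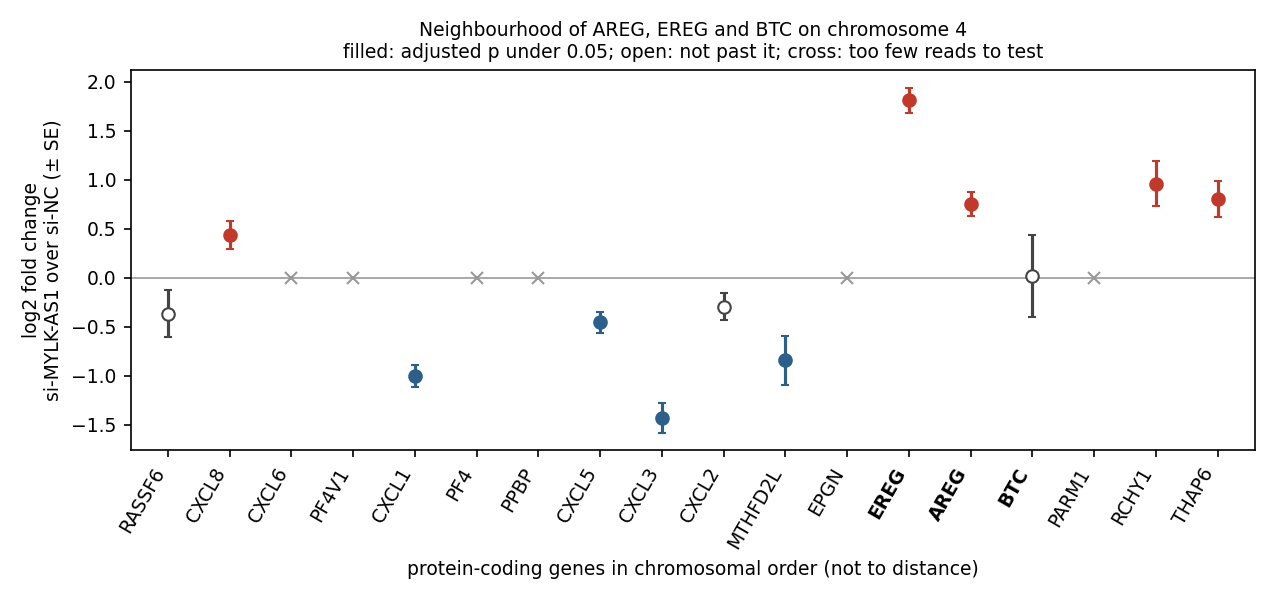
Log2 fold change (± SE, edgeR) of protein-coding genes around AREG, EREG and BTC in chromosomal order, si-MYLK-AS1 over si-NC; filled points passed an adjusted p of 0.05 and crosses had too few reads to test. EREG (1.81) and AREG (0.75) stand above 0, BTC was not called (0.02), and the chemokine genes beside them include CXCL1, CXCL3 and CXCL5 below 0 and CXCL8 above it.

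A word of 6 bases, AGCTTA, was noted in the 3′ UTRs of fallen genes in an earlier analysis of these libraries, so its presence is given only as a description. It was looked for on the transcript strand of the longest annotated 3′ UTR (GENCODE release 29). ERBB3, which fell, holds it at bases 457 and 718 of a 3′ UTR of 1450 bases. EGFR and TGFA, which did not pass the threshold, hold it once each, at bases 3090 and 1537. The other 7 genes do not hold it, and among them is ERRFI1, which fell (1843 bases searched). The 4 sites are shown with the word in capitals and 12 bases on each side.
ERBB3, first site: tagaaagacagaAGCTTAaaatctgtgaag
ERBB3, second site: gagtttgagaccAGCTTAgccaacatagta
EGFR: tgatgacaccaaAGCTTAggtgtttgctga
TGFA: ttaagtgcacctAGCTTAttacatcgtgaa

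Of 11515 tested genes with a 3′ UTR of at least 50 bases, 27.6% hold the word. Among genes with it 23.9% were called lower and 22.7% higher, and among genes without it 18.6% lower and 25.9% higher. Because the word was noted in fallen genes of these libraries, the shares called do not test it. The 3′ UTRs with the word had a median of 2894 bases, against 982 bases for those without, and these shares take no account of that. Whether the word has a part in the fall of ERBB3 was not tested.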

How the data were processed

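RNA of 6 PC9/GR samples was extracted with Trizol, and an Ion Proton kit was used for the libraries, per the labels' protocols. The authors deposited raw read counts per gene symbol. Per the submitters' processing notes the genome was GRCh38. Aligner, counter, annotation and strandedness were not given in the sources used here. The counts were tested here with edgeR 4.0.16 in R 4.3.3 (filterByExpr, TMM, robust quasi-likelihood F test, two-sided, Benjamini-Hochberg over 15391 genes, no block). The SE is the log2 fold change divided by the square root of F, and intervals are at 95%. The common biological coefficient of variation was 11.8%. Same-group library pairs differed by a chi-square per degree of freedom of 2.25 to 9.08, so none was a duplicate. Floors of 3 counts cover counting error only.

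Exon lengths, gene positions and 3′ UTRs came from GENCODE release 29 and promoters from RefSeq. Promoter windows were at hand for 9 of the 10 genes, and not for ERBB3. The members and lists were chosen with earlier results of these data known. Text names all 10 members, MYLK-AS1, up to 4 tested genes of lowest p per list and all of the list of remaining receptors and ligands. One marker of the leukocyte list is not reported here. Alternatives were other factors, filters, DESeq2 1.42.0, limma-voom (limma 3.58.1), a replicate block and leaving out each library. On counts simulated for 15391 genes, at shifts of 0.5, 1 and 2 (log2) the test found 19 of 65, 54 of 64 and 62 of 65 altered genes, with 10 false calls. No other genes were altered there, where 42.0% of tested genes were called in the data. The shares found in the simulation may therefore not hold for the data.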

Additional observations from a re-analysis of the deposited data

How the results depend on the processing

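The calls of the 10 ERBB genes, 3 higher and 2 lower, numbered the same under all 14 alternatives, and 130 of 138 refitted fold changes kept their direction and their side of the threshold. EGFR and BTC are not tested with the filter of 5 CPM. The other 8 fold changes had the opposite sign and none passed the threshold. For TGFA (-0.05 with all libraries) they were 0.062 without si-MYLK-AS1 replicate 2 and 0.019 without si-NC replicate 1, within a range of -0.19 to 0.062 without each library in turn. For BTC they were -0.0097 with upper quartile factors, -0.011 with no factors, -0.22 with limma-voom, -0.025 with the replicate block, -0.50 without si-MYLK-AS1 replicate 3 and -0.043 without si-NC replicate 1, within a range of -0.50 to 0.43 without each library in turn. The cause was not tested.

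Without each library in turn, the log2 fold change ran from -1.88 to -1.66 for ERBB3, 1.71 to 1.95 for EREG, 0.66 to 0.89 for AREG, 0.84 to 1.13 for HBEGF and -1.28 to -1.06 for ERRFI1, with adjusted p of at most 0.00584 (edgeR). That of EGFR ran from 0.22 to 0.66, and was lowest without si-NC replicate 3. With the replicate block, ERBB3 had -1.77, EREG 1.81, AREG 0.76, HBEGF 0.96 and ERRFI1 -1.19, and no call of the 10 genes changed. Same-numbered libraries deviated from their group means with correlations of -0.122, 0.138 and 0.0997, so the numbers were not taken to pair the samples. The call of NRG4 is absent with the filter of 5 CPM, which removes the gene. Of the named list genes, ADAM17, ORMDL3, CXCL8 and PMEL each lost their call without at least 1 library. EGFR, BTC and NRG4 each had under 100 reads in a group, which limits what their fold changes can show.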
